A study of Mus musculus with 6 samples.

Results

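Transcripts of 10 genes for core planar cell polarity proteins were followed in embryonic mouse palate, and all 10 were measured. They are the dishevelled genes Dvl1, Dvl2 and Dvl3, the Van Gogh-like genes Vangl1 and Vangl2, the Celsr genes Celsr1, Celsr2 and Celsr3, and the prickle genes Prickle1 and Prickle2. Every probe set with one of these names as its single symbol in the array's annotation was taken, which gave 18 of 45037 probe sets tested, 1 for each of 4 genes and several for each of the other 6 genes. Palates were microdissected from E13.5 mouse embryos, whose palatal shelves have not yet met, and which were of a C57BL6/129 mixed background and of mixed gender. There were 3 samples of genotype Fz1-/-;Fz2+/+, called Fz1-null here, and 3 of genotype Fz1-/-;Fz2-/-, called double-null, each hybridised to an Affymetrix 430 2.0 array and numbered 1 to 3 within its group. All 6 samples therefore lacked Fz1 by genotype, and no wild-type palate was compared. How many embryos made up a sample is not given in the labels, so the spread behind each p-value may be partly technical, and the number of arrays limits the precision.

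Planar cell polarity is the alignment of cells within the plane of a tissue. Its core proteins were found in Drosophila, where frizzled with dishevelled gathers on one side of a cell, Van Gogh with prickle gathers on the other, and the cadherin flamingo, the counterpart of the Celsr proteins, spans the junction between neighbouring cells. In mice the same proteins act in closure of the neural tube, in the orientation of hair cells in the inner ear and in the outgrowth of axons. The genes Fzd1 and Fzd2 encode frizzled receptors, which pass Wnt signals to dishevelled. The comparison asks whether transcripts of the other core components differed when Fzd2 was lost in addition to Fzd1.

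The genotype and the tissue were checked first. Fzd2 was lower in double-null palates in its 3 probe sets, with log2 differences of -1.25, -1.36 and -1.48 between the groups, and its levels did not overlap. The differences missed the threshold with limma without pairing (adjusted p = 0.217, 0.353 and 1.00) and passed with the replicate number as a block (adjusted p = 0.00889, 0.00816 and 0.00615). Fzd1, null in both groups, read 7.36 to 7.40 in Fz1-null and 7.43 to 7.51 in double-null arrays in its brighter probe set, and without wild-type arrays this does not check its genotype. All 10 palate mesenchyme markers measured, among them Prrx1, Osr2 and Shox2, had a mean above 7.24, the median of all probe sets. So had all 12 epithelial, 9 neuronal, 7 endothelial and 3 Schwann markers measured, 8 of 10 skeletal muscle and 4 of 5 macrophage markers. This level thus does not tell palate mesenchyme from the other cell types. Skeletal muscle, epithelial and neuronal markers were not even over the arrays, as given beside the Celsr genes below. Over all probe sets the correlation was 0.997 between the arrays of each number, and 0.991 to 0.994 between arrays that shared a genotype.

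No core planar cell polarity gene passed the test between genotypes. With limma, 0 of the 18 probe sets reached an adjusted p of 0.05, where 0% of all probe sets did, and 0 of 18 lay at an unadjusted p under 0.05, where 0.957% of all did. The same held with the replicate number as a block (0 of 18 at an adjusted p under 0.05 against 0.00666% of all, and 0 of 18 at an unadjusted p under 0.05 against 4.71%). In the authors' deposited table the smallest unadjusted p-value of the 18 was 0.12, that of Dvl3. The log2 differences, double-null minus Fz1-null, ran from -0.15 to 0.07. Their 95% intervals lay between -0.58 and 0.43 without the block, and between -0.36 and 0.23 with it. The lowest bound was that of Celsr1 and the highest that of 1455592_at of Vangl2 in both fits. The standard error (SE) was smaller with the block in all 18 probe sets. SEs and intervals of single genes are given without the block unless it is named.

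Most of the differences lay below 0. They were negative in 14 of 18 probe sets, where 52.1% of all probe sets were negative, with a median of -0.04 against -0.004 over all probe sets. Within the pairs of arrays numbered 1, 2 and 3, 14, 10 and 11 of the 18 were negative, and the pair medians were -0.07, -0.02 and -0.03. The median was -0.02 without double-null array 1, -0.01 without the pair numbered 1 and -0.03 with repeated quantile normalisation. Of the 18 probe sets, 15 had a mean above the median of all probe sets, and probe sets of like level were not compared. A difference of the same sign in all 3 pairs was seen downward in 3 of 18 (12.8% of all probe sets), in Dvl1, Dvl3 and Prickle1, and upward in 1 of 18 (11.6% of all), in Vangl1. A size of at least 0.1 either way was reached by 3 of 18 probe sets, against 21.8% of all.

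**Figure D1:**
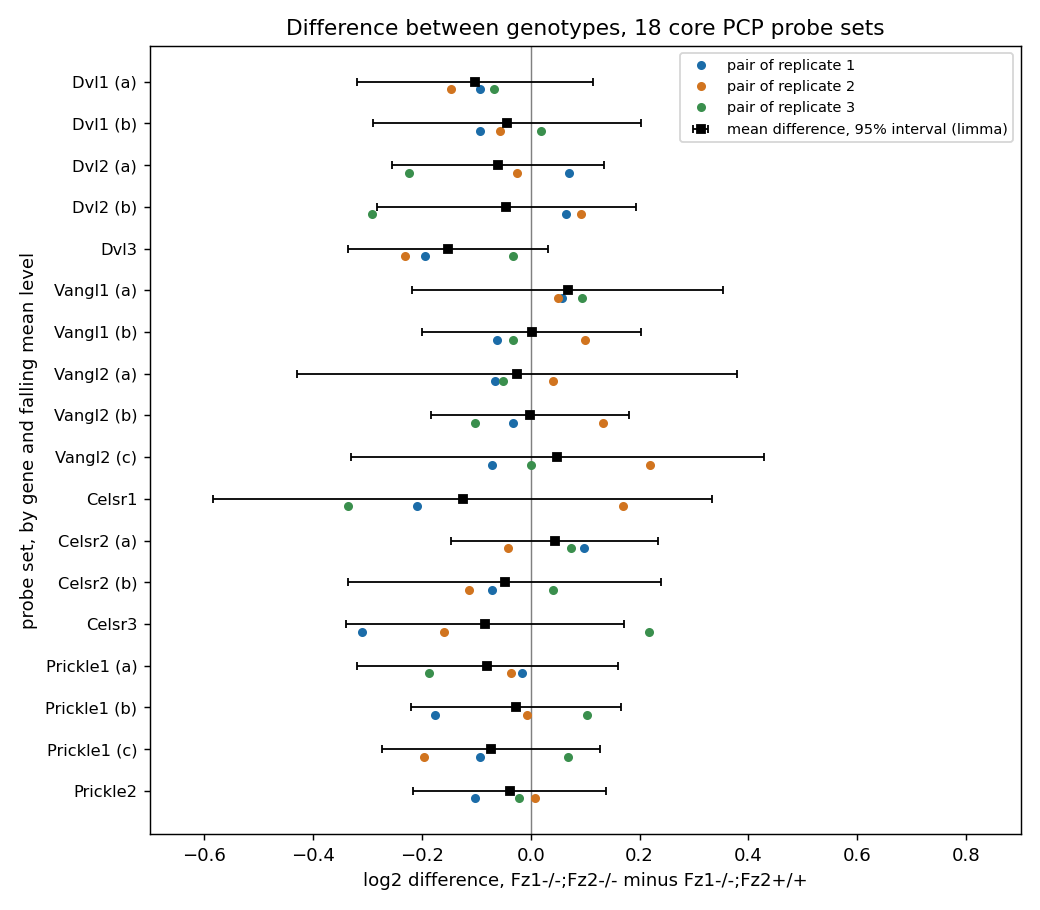
Log2 difference between double-null (Fz1-/-;Fz2-/-) and Fz1-null (Fz1-/-;Fz2+/+) palates for the 18 probe sets, with letters marking the probe sets of a gene from the highest mean downward. Black squares are mean differences with 95% limma intervals and coloured points the differences within each pair of same-numbered arrays. The intervals are from the fit without the replicate block, and all 18 include 0.

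The dishevelled genes encode cytoplasmic proteins that bind frizzled receptors and pass the signal on, both to the polarity pathway and to beta-catenin. Because these paralogs share that role, their promoters are shown side by side, as the 300 bases around the annotated start in RefSeq, build GRCm38.p6, at chr4:155847152-155847451 (plus strand), chr11:70000342-70000641 (plus strand) and chr16:20516736-20517035 (plus strand). Capitals mark 2 motifs searched on both strands, the GC box GGGCGG and the E-box CACGTG, which reads the same on both, and no match of one overlapped a match of the other.
Dvl1: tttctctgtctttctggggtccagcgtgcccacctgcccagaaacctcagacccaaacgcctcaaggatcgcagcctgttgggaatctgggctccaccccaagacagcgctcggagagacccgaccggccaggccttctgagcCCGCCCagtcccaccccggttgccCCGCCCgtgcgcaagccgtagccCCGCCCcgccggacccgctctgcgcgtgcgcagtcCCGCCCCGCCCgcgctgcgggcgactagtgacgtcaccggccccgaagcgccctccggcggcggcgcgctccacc
Dvl2: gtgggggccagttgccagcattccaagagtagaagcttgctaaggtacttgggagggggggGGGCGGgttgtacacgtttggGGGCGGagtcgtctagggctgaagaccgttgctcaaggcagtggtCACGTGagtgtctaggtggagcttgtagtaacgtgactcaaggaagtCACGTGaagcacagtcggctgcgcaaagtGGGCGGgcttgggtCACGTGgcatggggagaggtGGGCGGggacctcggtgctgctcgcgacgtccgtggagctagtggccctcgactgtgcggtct
Dvl3: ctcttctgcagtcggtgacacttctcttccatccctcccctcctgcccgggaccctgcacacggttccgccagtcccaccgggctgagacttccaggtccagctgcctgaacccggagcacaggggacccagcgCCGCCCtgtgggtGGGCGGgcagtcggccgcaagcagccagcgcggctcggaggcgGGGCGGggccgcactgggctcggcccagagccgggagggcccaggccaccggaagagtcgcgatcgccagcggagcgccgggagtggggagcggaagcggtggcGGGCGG
These windows held 5, 4 and 4 GC boxes in the order Dvl1, Dvl2 and Dvl3. At least 1 GC box was found in 35.7% of all 32851 promoters of this length, and at least 3 in 10.7%. The 3 windows were also richer in G and C, at 72.3%, 62% and 74% in the same order, against a median of 52.67%. Promoters of like composition were not compared. The Dvl2 window held 3 E-boxes and the other 2 windows held none, where 7.15% of all promoters had at least 1 and 0.0883% at least 3.

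Dvl3 showed the clearest separation of the genotypes among the 10 genes. Its probe set, 1420457_at, read 7.50, 7.50 and 7.49 on the log2 scale in Fz1-null arrays 1, 2 and 3, and 7.31, 7.27 and 7.46 in double-null arrays 1, 2 and 3. The groups did not overlap, and double-null array 3 lay close to the Fz1-null arrays, which were nearly equal. The group means were 7.50 ± 0.0047 and 7.35 ± 0.10 (SD, n = 3 each), and their log2 difference was -0.15 (SE 0.08, interval -0.34 to 0.03, limma unadjusted p = 0.0914, adjusted p = 1.00), which is 1.11-fold lower. With the replicate block the interval was -0.31 to 0.0074 (limma unadjusted p = 0.0590, adjusted p = 0.966). This was the 1 probe set of 18 whose double-null arrays all lay below the Fz1-null arrays, as in 1.73% of all probe sets. The difference ran from -0.21 to -0.11 when single arrays were left out. It kept its sign in all 18 alternatives run, but some, such as the replicate block and the intensity trend, cannot change a difference.

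Dvl1 lay lower by less. The brighter of its probe sets, 1437301_a_at, read 9.64, 9.60 and 9.41 in Fz1-null and 9.54, 9.45 and 9.35 in double-null arrays. Each double-null array was below the Fz1-null array of its number, but the groups overlapped, since array 3 was the lowest of both. The means of 9.55 ± 0.12 and 9.45 ± 0.10 (SD, n = 3 each) gave a log2 difference of -0.10 (SE 0.09) that did not pass. In the other probe set, 1450978_at, array 3 was the highest of both groups instead (9.41 and 9.43, with the other arrays at 9.11 to 9.25), and the difference was -0.04 (SE 0.11). The probe sets of Dvl1 thus placed the number 3 arrays at opposite ends.

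Dvl2 differed between genotypes mainly in the pair numbered 3. The values of 1417207_at were 8.77, 8.90 and 8.94 in Fz1-null and 8.84, 8.88 and 8.71 in double-null arrays, with overlap and a log2 difference of -0.06 (SE 0.08). Its second probe set, 1448616_at, read 7.19, 7.08 and 7.22 against 7.26, 7.17 and 6.93, a difference of -0.04 (SE 0.10). In both, double-null array 3 was the lowest of the 6, with pair differences of -0.22 and -0.29 there, and without the pair numbered 3 the difference of the first was 0.02. All 5 dishevelled probe sets had a negative difference (52.1% of all probe sets), with a median of -0.06, and none passed.

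**Figure D2:**
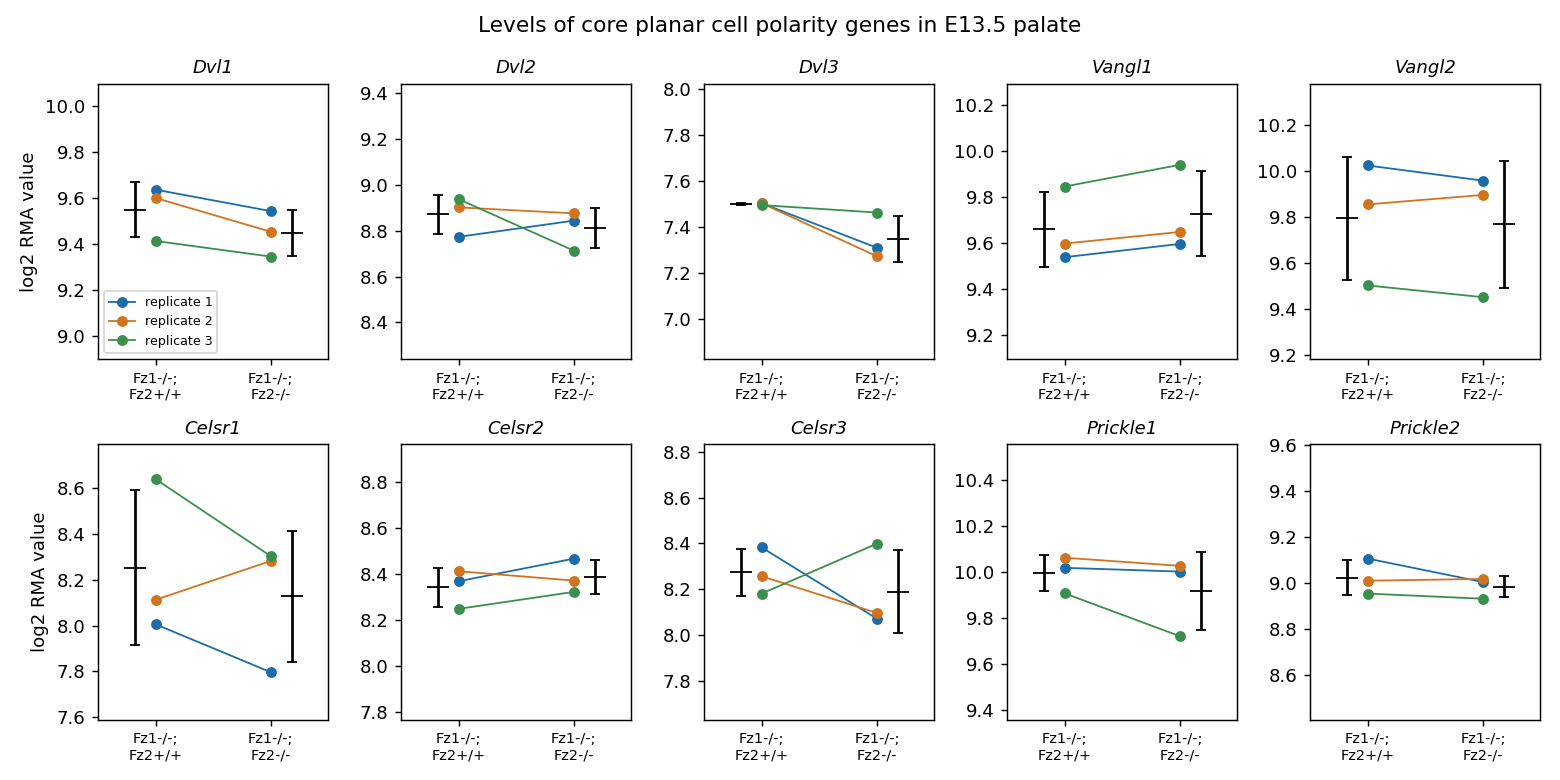
Log2 RMA values of the probe set with the highest mean of each gene, in Fz1-/-;Fz2+/+ and Fz1-/-;Fz2-/- palates. Points are arrays, lines join arrays of the same replicate number, black bars are means with SD (n = 3), and all panels have the same height in log2 units, each around its own mean. Dvl3 is the 1 panel where the groups do not overlap.

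The Van Gogh-like genes encode membrane proteins that recruit prickle. Vangl2 is the one whose mouse mutant, Looptail, has an open neural tube. Its promoter is shown because its probe sets 1436118_at and 1455592_at passed the test of array number given below. They did so in opposite directions, and its probe set 1419218_at did not pass. The promoter lies at chr1:172027246-172027545 (minus strand, GRCm38.p6, RefSeq), with the same motifs in capitals.
Vangl2: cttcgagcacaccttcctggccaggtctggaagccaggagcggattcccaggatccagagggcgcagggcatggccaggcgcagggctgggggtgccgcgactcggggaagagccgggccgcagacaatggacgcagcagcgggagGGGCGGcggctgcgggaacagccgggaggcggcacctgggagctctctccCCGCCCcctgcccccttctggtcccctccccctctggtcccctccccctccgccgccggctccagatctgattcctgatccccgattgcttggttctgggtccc
It held 2 GC boxes and no E-box. Promoter entries matched 8 of the 10 genes, with 12 windows in all. Of these, 10 held a GC box, against 35.7% of all promoters, and promoters of like composition were not compared. The motif CTTTGAT, bound by TCF/LEF factors of the beta-catenin pathway, was in 1 of the 12 on either strand, a window of Prickle2, against 3.73% of all promoters. TATAAA was in 0 of the 12, against 13.6% of all.

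No Vangl2 probe set passed between the genotypes, and its probe sets disagreed about the arrays. Probe set 1436118_at read 10.03, 9.86 and 9.50 in Fz1-null and 9.96, 9.90 and 9.45 in double-null arrays, so both arrays numbered 3 were low. Probe set 1455592_at read 9.44, 9.29 and 9.82 against 9.37, 9.51 and 9.82, so the same arrays were high. The third, 1419218_at, stayed within 9.48 and 9.63 in all 6 arrays. Their log2 differences between genotypes were -0.03 (SE 0.17, or 0.06 with the replicate block), 0.05 (SE 0.16, or 0.08 with it) and -0.001 (SE 0.08, or 0.07 with it) in this order. The first turned positive with repeated quantile normalisation (0.0039) and ran from -0.17 to 0.13 when single arrays were left out, and its sign turned without Fz1-null array 1, Fz1-null array 2 or double-null array 3.

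Vangl1 was the member that lay higher in double-null palates in every pair. The values of 1427234_at were 9.54, 9.60 and 9.84 in Fz1-null and 9.59, 9.65 and 9.94 in double-null arrays. Each step within a pair was small, at 0.06, 0.05 and 0.09, and both arrays numbered 3 stood above the rest. The means of 9.66 ± 0.16 and 9.73 ± 0.19 (SD, n = 3 each) gave a log2 difference of 0.07 (SE 0.12) that did not pass and was -0.04 without double-null array 3. A dimmer probe set, 1441097_at, had a difference of 0.001 (SE 0.09). Brightness of different probe sets depends on their own probes, so no order of abundance among paralogs was drawn from these levels.

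Celsr genes encode large cadherins that join neighbouring cells. Celsr1 is best known from epithelia such as skin, and Celsr3 from neurons, where it acts in the growth of axon tracts. The values of Celsr1 were 8.01, 8.11 and 8.64 in Fz1-null and 7.80, 8.28 and 8.30 in double-null arrays, the widest spread of the 10 genes at 0.84 log2 units. The groups overlapped, and the means of 8.25 ± 0.34 and 8.13 ± 0.29 (SD, n = 3 each) differed by -0.13 (SE 0.20), which did not pass. Its pair differences of -0.21, 0.17 and -0.34 did not have 1 sign, and the difference was 0.07 without Fz1-null array 3 and 0.04 without double-null array 1.

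Celsr3 read 8.38, 8.26 and 8.18 in Fz1-null and 8.07, 8.10 and 8.40 in double-null arrays. Double-null array 3 was the highest of the 6 while the other 2 of its group were the lowest. The log2 difference was -0.08 (SE 0.11), with pair differences of -0.31, -0.16 and 0.22, and 0.03 without the pair numbered 1. Celsr2 differed in sign between its probe sets, by 0.04 (SE 0.08) in 1435336_at, which read 8.37, 8.41 and 8.25 in Fz1-null and 8.47, 8.37 and 8.32 in double-null arrays, and by -0.05 (SE 0.12) in 1422073_a_at. The first was -0.0034 without Fz1-null array 3. No Celsr probe set passed, and 3 of 4 had a negative difference (52.1% of all probe sets).

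Cell type markers varied between arrays as well. The 12 epithelial markers, all of them lower in double-null palates by mean difference, had array means of 9.11 to 9.31 in Fz1-null and 8.76 to 9.23 in double-null samples. Their pair differences were -0.06, -0.07 and -0.49, beside -0.21, 0.17 and -0.34 for Celsr1, which had the opposite sign in the pair numbered 2. Of 9 neuronal markers 7 were lower, with pair differences of -0.29, -0.09 and 0.21 beside -0.31, -0.16 and 0.22 for Celsr3. The array levels ran in different orders. The neuronal means were 10.73, 10.01 and 10.36 in Fz1-null arrays 1, 2 and 3, where Celsr3 read 8.38, 8.26 and 8.18. In double-null arrays they were 10.44, 9.93 and 10.56, where Celsr3 read 8.07, 8.10 and 8.40. The 10 skeletal muscle markers, all higher by mean difference, had array means of 8.47 to 8.55 in Fz1-null and 8.31 to 9.16 in double-null samples, but their pair differences were -0.11, -0.24 and 0.68, so the mean was lower in the pairs numbered 1 and 2, with the same signs as Celsr3. Of the 10 mesenchyme markers 8 were lower, with array means of 9.94 to 9.98 and 9.72 to 10.01. Their pair differences were 0.06, -0.03 and -0.26. In the pair numbered 3, 11 of the 18 core probe sets were negative, against 23200 of all 45037. None of these markers passed, and their part in the values of the core genes was not tested. In bulk palate, fewer cells of a type and less RNA per cell cannot be told apart.

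**Figure D3:**
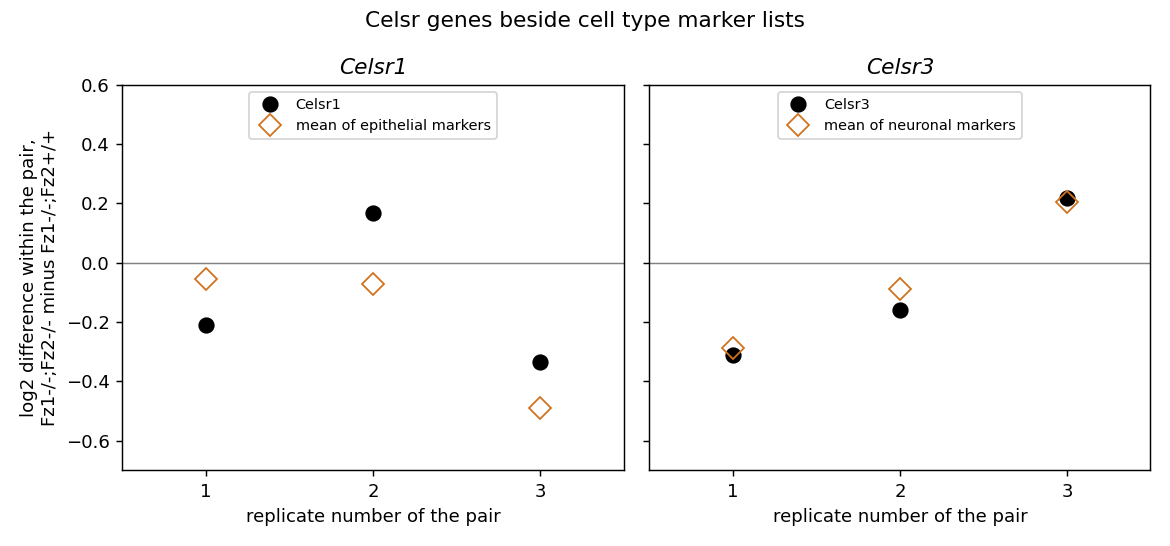
Log2 differences within each pair of same-numbered arrays, double-null minus Fz1-null, for Celsr1 beside the mean of 12 epithelial markers and for Celsr3 beside the mean of 9 neuronal markers. The differences of Celsr3 and the neuronal mean lie close together in each of the 3 pairs. Their array levels, not shown here, ran in different orders in both genotypes. Of the 9 neuronal markers 2, Dcx and Elavl3, were higher in double-null palates by mean difference. Celsr1 lies on the other side of 0 from the epithelial mean in the pair numbered 2.

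The prickle genes encode cytoplasmic LIM domain proteins that bind the Van Gogh-like proteins. The brightest probe set of Prickle1, 1452249_at, read 10.02, 10.06 and 9.91 in Fz1-null and 10.001, 10.03 and 9.72 in double-null arrays. Double-null array 3 was lowest, the other 2 pairs differed by -0.02 and -0.04, and the groups overlapped. The log2 difference of -0.08 (SE 0.10) did not pass and was 0.02 without double-null array 3. Its 2 other probe sets differed by -0.03 (SE 0.08) and -0.07 (SE 0.09), both higher in the double-null array of the pair numbered 3.

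Prickle2 was among the steadiest members. It read 9.11, 9.01 and 8.95 in Fz1-null and 9.005, 9.02 and 8.93 in double-null arrays, which overlapped and spanned 0.18 log2 units in all. The means of 9.02 ± 0.08 and 8.99 ± 0.05 (SD, n = 3 each) differed by -0.04 (SE 0.08, interval -0.22 to 0.14), and by 0.0025 without Fz1-null array 1. All 4 prickle probe sets had a negative difference (52.1% of all probe sets), with a median of -0.06, and none passed.

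Variation among the 6 arrays followed the number of the array in these genes about as it did in all probe sets. Of the sum of squares over the 6 arrays, the number took a median of 71.4% in the 18 probe sets and the genotype 5.48%, against 65.0% and 6.46% over all probe sets. By degrees of freedom alone, 2 for the number and 1 for the genotype of 5 in all, the mean shares would be 40% and 20%. The number took more than the genotype in 17 of 18, against 86.7% of all probe sets, and Dvl3, with 63.0% for the genotype and 16.8% for the number, was the exception. An F test of the number beside the genotype with limma, chosen after the values were seen, passed in 3 of 18 probe sets (11.3% of all probe sets). These were 1436118_at of Vangl2, with means of 9.99, 9.88 and 9.48 for numbers 1, 2 and 3 (adjusted p = 0.0146), 1455592_at of Vangl2, with 9.40, 9.40 and 9.82 (adjusted p = 0.0373), and Celsr1, with 7.90, 8.20 and 8.47 (adjusted p = 0.0496). Beyond the Vangl2 probe sets, the calls moved with the setting. That of Celsr1 ended with repeated quantile normalisation (adjusted p = 0.0516) and with the pseudocount of 32 (adjusted p = 0.057), while 1427234_at of Vangl1 (adjusted p = 0.052 at first) passed under both (adjusted p = 0.0403 and 0.0251). The labels do not say what a number shares, and the Vangl2 probe sets ordered the numbers in opposite ways.

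**Figure D4:**
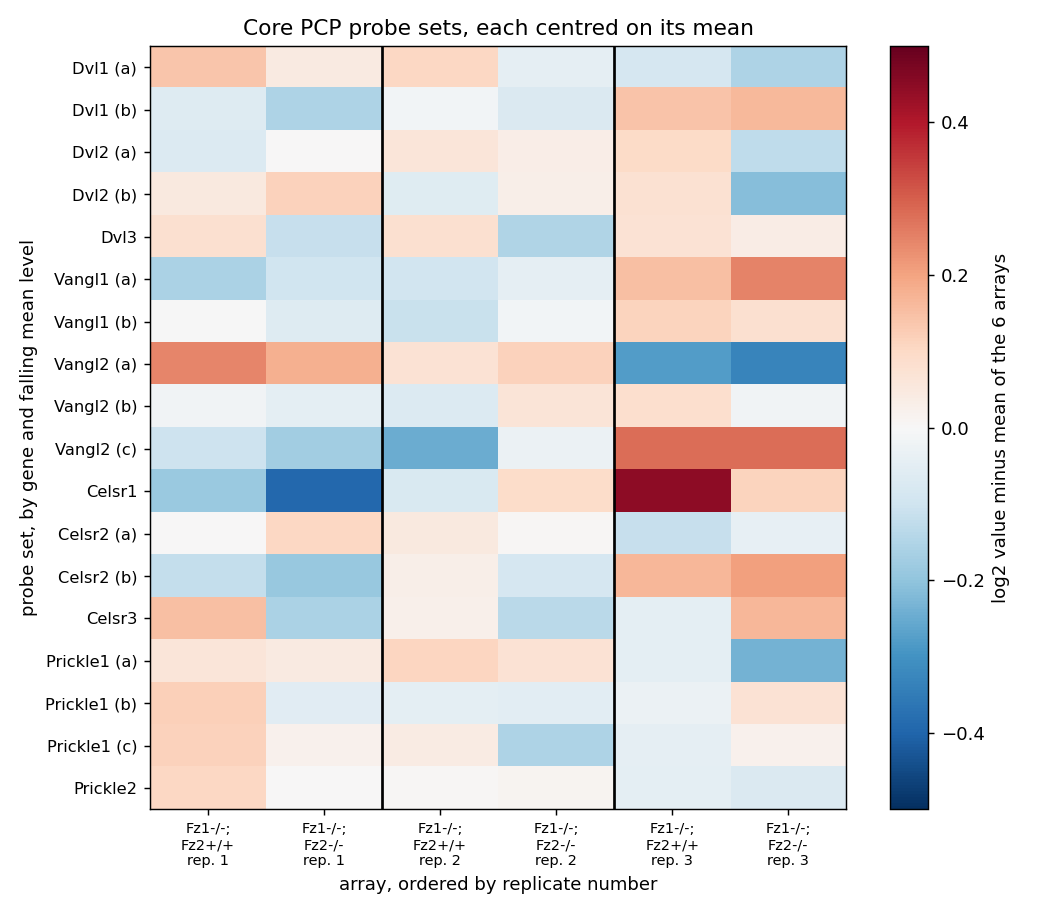
Log2 value of each of the 18 probe sets minus its mean over the 6 arrays, with arrays side by side by replicate number and black lines between the numbers. Colours mostly match within a number and change between numbers, with the probe sets 1436118_at (a) and 1455592_at (c) of Vangl2 opposed in the arrays numbered 3.

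Profiles most like those of the 3 members with the widest spread were found among genes outside the pathway. Likeness was the root mean square difference between profiles centred on their mean over the 6 arrays. Nearest to Celsr1 were Keap1 (0.037), Stox2 (0.041) and Atxn7l3b (0.045). Rsbn1 (0.018), Stk4 (0.022) and Atp2c1 (0.022) were nearest to the brightest probe set of Vangl2, and Adcy9 (0.021), Peg3 (0.023) and Cpxm2 (0.024) to that of Vangl1. With 6 arrays and 45037 probe sets, near matches of this kind are a description of these arrays alone.

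Other genes of the pathway did not pass either. Of 36 listed, 32 were measured, and with limma 0 passed in either direction (0% of all probe sets) and 0 lay at an unadjusted p under 0.05 (0.957% of all). With the replicate block 0 passed (0.00666% of all) and 1 of 32, Wnt5a, lay at an unadjusted p under 0.05 (4.71% of all). Differences were negative in 23 of 32 (52.1% of all probe sets). Within the pairs numbered 1, 2 and 3 they were negative in 24, 9 and 23 of 32 (22470, 23161 and 23200 of all 45037). The pair medians were -0.04, 0.05 and -0.09. The mean differences had a median of -0.04 that was 0.0048 without double-null array 3, -0.07 without double-null array 2 and -0.0040 with repeated quantile normalisation. Invs, whose product inversin binds dishevelled, was the 1 gene whose groups did not overlap. It read 7.95 to 8.05 in Fz1-null and 8.08 to 8.14 in double-null arrays, a log2 difference of 0.10 (SE 0.07). Of all probe sets, 2.79% lay higher without overlap.

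Among ligands, Wnt5a, a Wnt known for its part in mouse polarity signalling, varied most. It read 10.61, 10.16 and 10.68 in Fz1-null and 10.73, 9.67 and 9.996 in double-null arrays. Within the pairs numbered 1, 2 and 3 it differed by 0.12, -0.49 and -0.68, and the groups overlapped. Its log2 difference of -0.35 (SE 0.26, adjusted p = 1.00) ran from -0.65 to -0.12 when single arrays were left out. With the replicate block the limma interval was -0.67 to -0.03 (unadjusted p = 0.0372, adjusted p = 0.966). With the block and 1 pair left out, a setting added after the data were seen, it was -0.58 without the pair numbered 1 (limma adjusted p = 0.00988, 93 probe sets passing), -0.28 without the pair numbered 2 (adjusted p = 0.569) and -0.18 without the pair numbered 3 (adjusted p = 1.00). The 1 passing setting is thus the one without the pair of opposite sign. Wnt11 differed by 0.14 (SE 0.10) and Wnt5b by 0.11 (SE 0.10), and neither passed.

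No receptor of the pathway passed. Fzd3 and Fzd6, the frizzleds best known for polarity in mice, differed by 0.01 (SE 0.10) and 0.03 (SE 0.09). Fzd3 was -0.09 by the mean of its probe sets, and it lay below 0 without Fz1-null array 3 (-0.05), double-null array 1 (-0.04) or double-null array 2 (-0.0087). Fzd6 was -0.03 without double-null array 3. The Wnt5a receptors Ror1 and Ror2 differed by -0.13 (SE 0.17, interval -0.54 to 0.27) and -0.09 (SE 0.10), and Ptk7, a co-receptor, by -0.04 (SE 0.20). Of 7 receptors 5 had a negative difference (52.1% of all probe sets).

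Downstream, Daam2, a formin that links dishevelled to the actin cytoskeleton, differed by -0.12 (SE 0.09) and was lower in all 3 pairs. That was so in 5 of the 32 genes (12.8% of all probe sets), Rac1 and Ptk7 among them. Ankrd6, the counterpart of the Drosophila dishevelled partner diego, differed by -0.09 (SE 0.08). Of 12 effectors 8 had a negative difference (52.1% of all probe sets), among them the small GTPase genes Rhoa (-0.06, SE 0.27) and Rac1 (-0.06, SE 0.08). Fat4 and Dchs1, large cadherins of a parallel polarity system, differed by -0.11 (SE 0.20) and -0.04 (SE 0.12).

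**Figure D5:**
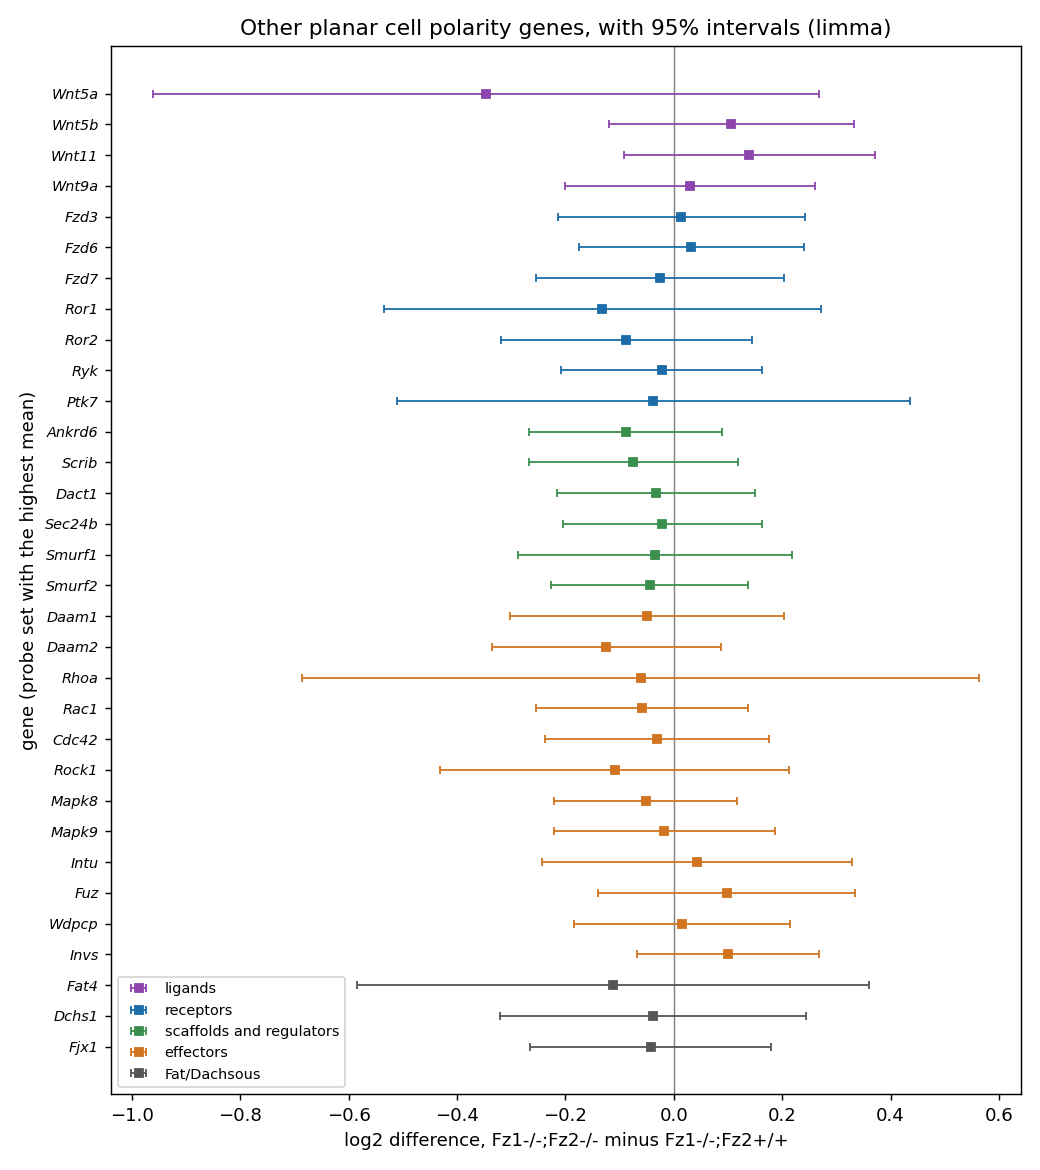
Log2 difference between double-null and Fz1-null palates for the 32 other planar cell polarity genes, each by its brightest probe set, with 95% limma intervals and colours by role. The intervals are from the fit without the replicate block. All 32 include 0, and that of Wnt5a is among the widest.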

How the data were processed

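The deposited value table holds log2 probe set values that the authors made with RMA (background correction, quantile normalisation, median polish), per the submitters' processing notes, and its version is not given in the sources used here. RMA gives no call of presence, and quantile normalisation would hide a shift shared by most transcripts. The authors' deposited comparison table holds for every probe set, per the file headers, the fold change on the log2 scale and as a signed linear value, and a p-value without adjustment. On the log2 scale it was the negative of the double-null minus Fz1-null difference (largest deviation 4.93e-08), so signs here are the opposite of theirs.

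Of 45101 probe sets, 64 controls were left out. Names came from the platform annotation, updated by Entrez identifier to RefSeq (34945 probe sets had a single symbol, 932 several, and 9160 were not listed). Differences were tested with limma 3.58.1 in R 4.3.3 (lmFit, eBayes, genotype only, Benjamini-Hochberg over 45037 probe sets, threshold 0.05, two-sided). An exact permutation test of 3 against 3 arrays cannot go below 0.1. Same-numbered arrays deviated together (correlations of 0.63, 0.44 and 0.63), so the pairing rests on the data and not on the labels, and the replicate block was an alternative, as were those in the closing section. A gene's probe set with the highest mean stood for it. Of the other polarity genes, those with the 3 smallest p in each direction, Fzd3 and Fzd6 were to be named, and Ror1, Ror2, Ptk7, Rhoa, Rac1, Fat4 and Dchs1 were named in addition, after their values were seen. The members and lists were chosen with earlier results of these data known. The fits were tested on simulated data with variances drawn from limma's fitted prior. The test of replicate number depends on that assumption: with residual variances of the arrays used directly it recovered fewer of the changed probe sets, and with limma's moderated variances it and the block fit made more false calls.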

Additional observations from a re-analysis of the deposited data

How the results depend on the processing

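No core planar cell polarity probe set passed between genotypes under any of the alternatives run, with 0 of 18 in each, except that the filter above the median mean tested 15 of them and averaging the probe sets of a gene tested the 10 genes, also with 0. Over all probe sets the 0 calls became 3 with the replicate block, all of Fzd2. Without the pairs numbered 1, 2 and 3 the replicate block gave 93, 3 and 3 calls. The replicate block changed no call of a core gene. The median difference of the core probe sets ran from -0.056 to -0.015 when single arrays were left out, and was -0.013 with the block without the pair numbered 1. The count of core probe sets that differed by array number, 3 of 18 at first, was 5 of the 15 above the median mean, with Vangl1 and Celsr2 added. It was 4 with the intensity trend (Vangl1 added) and 4 with the pseudocount (Vangl1 and Celsr2 in, Celsr1 out), and 3 with repeated quantile normalisation (Vangl1 in place of Celsr1). Both Vangl2 calls held in all 6 of these settings, and the cause was not tested. The share of all probe sets called is not given for these settings. The counts therefore cannot be read as particular to the core genes.

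Of 180 recomputed differences of the 10 core genes 15 turned their sign, and Dvl1 and Dvl3 never did. The 180 include settings that cannot change a difference, such as the replicate block over all pairs and the intensity trend. Vangl2 became 0.0039 with repeated quantile normalisation, 0.048 with array weights and 0.0076 by averaging all probe sets of a gene, which also turned Celsr2 to -0.0021 and Fzd3 to -0.089. Without single arrays, differences ran from -0.039 to 0.160 for Vangl1, -0.171 to 0.134 for Vangl2, -0.248 to 0.068 for Celsr1, -0.0034 to 0.079 for Celsr2, -0.135 to 0.018 for Prickle1, -0.074 to 0.0025 for Prickle2, -0.047 to 0.085 for Fzd3 and -0.033 to 0.087 for Fzd6. With the block and 1 pair left out, the differences that turned were Dvl2 (-0.125 to 0.022), Celsr3 (-0.235 to 0.029) and Fzd3 (-0.0026 to 0.024). The cause was not tested. In the fits to all arrays, with and without the replicate block, no interval of a core gene's difference excluded 0. Intervals are not given for the other settings.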
